A study of Homo sapiens with 10 samples.

Results

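ABTr3 is 1 of 4 veliparib-resistant clones of PEO1, an established cell line from a high grade serous ovarian carcinoma that is deficient in BRCA2. The 2 libraries of ABTr3 (replicate 1 and replicate 2) were set against the mean of the clones ABTr1, ABTr2 and ABTr4 with 2 libraries each, so that 2 of the 10 libraries of the series were compared with 6 others. All 4 clones share the BRCA2-deficient background and were kept in 40 µM veliparib, an inhibitor of PARP enzymes, for 6 months, then grown for 4 to 5 days without it before polyadenylated RNA was taken. Each clone is a single line, which limits the p-values to the spread seen between libraries of these lines. The design text names 15 samples in 3 independent experiments. Whether replicate 1 and replicate 2 stand for 2 of these experiments, and so for separate cultures, is not in the labels. The 2 libraries of parental PEO1 were not compared.

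PARP enzymes help to repair single-strand breaks in DNA, and cells without working BRCA2 depend on them because they cannot repair the double-strand breaks that follow by homologous recombination. Resistant clones picked from 1 culture share that selection and can still differ from each other in lineage genes, innate immune genes, cell cycle genes or whole stretches of a chromosome. The comparison asks in which of these ABTr3 stood apart from its 3 sister clones.

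Total counts were 49749872 and 33883646 in the ABTr3 libraries, against 20640602 to 55488566 in the 6 libraries of the other clones, with replicate 1 the deeper library of each clone. Libraries of the same replicate number deviated together, with a correlation of the deviations of 0.456 to 0.739 over the 6 pairs of clones. The number was a block in the fit by design. On the first principal component of the 8 libraries, which held 48.2% of the variance, replicate 1 lay above replicate 2 in every clone. ABTr3 had the highest value within each number, with 63.2 and -0.47, against -3.01 to 57.4 in replicate 1 and -68.6 to -32.3 in replicate 2 of the others. The labelled cell type is epithelial. Summed over 8 epithelial markers, ABTr3 had 2822 to 3076 CPM (reads of a gene scaled to library size) and the others 2988 to 3670 CPM. The log2 fold change was below 0 for 6 of the 8, and 1 passed as higher, beside 1.68% of all genes tested. EPCAM, an epithelial adhesion protein, had 105 and 95.6 CPM in ABTr3, against 72.5 to 190 in the others. CDH1, which encodes E-cadherin, had 1.26 and 0.242 CPM in ABTr3 and 0.045 to 9.76 CPM in the others, the highest of them in ABTr1 replicate 1. Summed fibroblast markers were at 147 to 189 CPM in ABTr3 and 147 to 212 CPM in the others, nearly all of it THY1, while COL3A1, DCN and LUM had no read in any clone library and COL1A2 none in ABTr3. Summed leukocyte markers were at 134 to 150 CPM in ABTr3 and 77.1 to 141 CPM in the others, nearly all of it CD68, with CD3E at 0 reads in ABTr3. Summed endothelial markers were at 2.51 to 2.80 CPM in ABTr3 and 3.58 to 17.7 CPM in the others. Summed mesothelial markers were at 11.9 to 18.8 CPM in ABTr3 and 9.63 to 26.3 CPM in the others, and erythroid markers had no read in ABTr3. By edgeR 0 markers of the 5 lists other than the epithelial one passed the threshold, and 4 fibroblast, 2 leukocyte and 1 endothelial marker had an unadjusted p under 0.05. DESeq2 called 3 of 5 fibroblast markers lower, and of 4 leukocyte markers 1 higher and 1 lower. By limma-voom 1 of 5 fibroblast and 1 of 6 endothelial markers were lower. Over all 16343 genes tested DESeq2 called 436 higher and 676 lower, and limma-voom 308 and 362.

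ABTr3 differed from the mean of its sister clones at 590 of 16343 genes tested, or 3.61%, by edgeR's quasi-likelihood test with a Benjamini-Hochberg adjusted p under 0.05. Of these, 274 genes (1.68%) were higher and 316 (1.93%) were lower in ABTr3. A difference of at least 2-fold was found for 92 of the higher (0.563% of genes tested) and 154 of the lower genes (0.942%), or 246 in all (1.51%). The median log2 fold change over all genes tested was 0.03. In bulk RNA, fewer cells with a transcript and less of it per cell cannot be told apart. Both ABTr3 libraries lay above all 6 others for 102 of the 274 higher genes and below all 6 for 139 of the 316 lower genes, where 2.91% and 3.70% of all genes tested did so. Within each replicate number ABTr3 lay above the 3 other clones for 241 of the higher genes and below them for 285 of the lower genes, against 9.82% and 10.6% of all genes tested. The called genes were picked by the same contrast in the same libraries, so both sets of counts are a description.

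The calls depend on the block and move with the replicate number. Without the replicate block edgeR called 0 genes, with 785 at an unadjusted p under 0.05, DESeq2 called 107 and limma-voom 0. Of the 274 genes higher in ABTr3, 86.9% were also higher in replicate 1 than in replicate 2, and of the 316 lower genes 84.8% were also lower in replicate 1, against 49.4% and 50.6% of all genes tested. The part of the replicate effect in these differences was not tested. With 1 library left out, the count ran from 110 without ABTr3 replicate 2 to 1530 without ABTr2 replicate 1. It was 262 without ABTr3 replicate 1, 292 and 260 without replicate 1 and 2 of ABTr4, 951 without ABTr2 replicate 2 and 1057 without ABTr1 replicate 2. All 590 genes kept their sign with any library left out, though they were picked in a fit that held these libraries. The shares of all genes tested that are given beside gene lists are those of the reported fit. List counts from other settings have other shares beside them, larger where the setting called more genes. The same contrast gave 1965 genes (12%) for ABTr1, 146 (0.893%) for ABTr2 and 599 (3.67%) for ABTr4, each against its 3 sisters, and 1484 genes (9.08%) differed among ABTr1, ABTr2 and ABTr4.

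Among genes with a mean of at least 5 CPM in the higher group and no overlap between groups, the largest rises in ABTr3 included genes otherwise known from the placenta, hair, neuroendocrine cells and lipid uptake. KRT23, an epithelial keratin, had 38.1 and 75.9 CPM in ABTr3, against 4.59 and 17.1 in ABTr1, 5.22 and 5.75 in ABTr2, and 0.855 and 4.89 in ABTr4. Both ABTr3 libraries lay above all 6 others (log2 fold change 3.44 ± 0.38, mean ± SE; adjusted p = 0.0132 by edgeR). PSG1, a pregnancy-specific glycoprotein made by the placenta, had 11.4 and 23.7 CPM in ABTr3, against 1.33 to 2.88 CPM in the others. Its log2 fold change was 3.12 ± 0.25 (adjusted p = 1.36e-05), and with any library left out the adjusted p was at most 0.00322. PSG genes are near-identical copies that reads can be shared between, so the member is uncertain. KRT34, a hair keratin that also has close relatives, had 10.9 and 16.9 CPM in ABTr3, against 0.9 to 3.87 CPM in the others (log2 fold change 2.97 ± 0.32, adjusted p = 0.000669).

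LPL encodes lipoprotein lipase, which frees fatty acids from circulating lipids. It had 40.0 and 15.5 CPM in ABTr3, against 7.38 to 8.34 CPM in replicate 1 and 1.5 to 2.01 CPM in replicate 2 of the others (log2 fold change 2.70 ± 0.20, adjusted p = 1.2e-05). The 3 sister clones were close together within each number, and ABTr3 was above them in both. RYR2, a calcium release channel best known from the heart, had 7.64 and 7.18 CPM in ABTr3, against 1.00 to 2.23 CPM in the others (log2 fold change 2.46 ± 0.28). GDA, guanine deaminase, had 89.8 and 132 CPM in ABTr3, against 79.5 and 74.2 in ABTr2 and 11.8 to 27.5 in ABTr1 and ABTr4. Its distance from ABTr2 was thus small, with a log2 difference of 0.55, beside 2.56 from ABTr1 and 3.08 from ABTr4. DCDC2, a protein of microtubules and cilia, had 27.8 and 39.6 CPM in ABTr3, against 16.4 and 18.4 in ABTr2 and 4.22 to 12 in the 4 libraries of ABTr1 and ABTr4 (log2 fold change 1.80 ± 0.17).

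The calls of PSG1, KRT34, LPL, RYR2, KIAA1644, GDA and DCDC2 were kept with any 1 of the 8 libraries left out. The call of KRT23 ended without ABTr1 replicate 1 and without either ABTr3 library (adjusted p up to 0.10). ADAMTS9, a secreted protease of the matrix, had 28.2 and 27.5 CPM in ABTr3, against 1.82 to 14.6 CPM in the others, and its call (log2 fold change 2.79 ± 0.46) ended without any 1 of 5 libraries, with an adjusted p of up to 0.192. The same rule named SCG5, a chaperone of neuroendocrine cells, ADAMTS18 and SUN3, with log2 fold changes of 1.96, 1.90 and 1.83. Their calls ended without ABTr3 replicate 2, with adjusted p of up to 0.174, 0.0558 and 0.124.

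**Figure D1:**
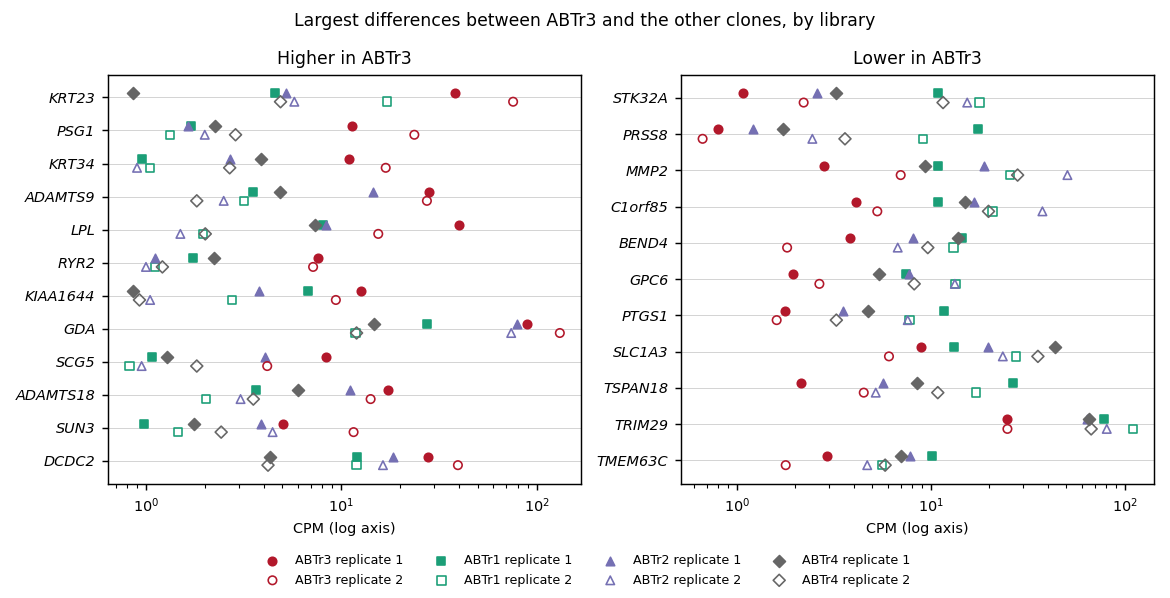
CPM by library, on a log axis, of the 12 genes with the largest rise (left) and 11 of the 12 with the largest fall (right) in ABTr3, chosen among genes past the threshold, with a mean of at least 5 CPM in the higher group, whose ABTr3 libraries lay outside all 6 others. Filled symbols are replicate 1 and open symbols replicate 2, ABTr3 is red, and PSG1 shows 11.4 and 23.7 CPM in ABTr3 to the right of all other libraries.

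By the same rule, the largest falls included a matrix protease, surface proteins and a kinase. MMP2, a gelatinase that cuts collagen of basement membranes, had 2.80 and 7 CPM in ABTr3, against 9.38 to 18.7 CPM in replicate 1 and 25.6 to 50.6 CPM in replicate 2 of the others. The log2 fold change was -2.20 ± 0.19 (adjusted p = 4e-05), and it was -1.92, -2.80 and -1.88 against ABTr1, ABTr2 and ABTr4. TRIM29, a member of the tripartite motif family, had 24.8 and 24.8 CPM in ABTr3, against 64.0 to 110 CPM in the others, with no overlap (log2 fold change -1.61 ± 0.17). GPC6, a heparan sulfate proteoglycan of the cell surface, had 1.96 and 2.66 CPM in ABTr3, against 5.40 to 13.4 CPM in the others (log2 fold change -1.94 ± 0.25). C1orf85, a lysosomal membrane protein, had 4.14 and 5.30 CPM in ABTr3, against 10.9 to 37.6 CPM in the others, and BEND4 had 3.84 and 1.82 CPM in ABTr3, against 6.75 to 14.4 CPM in the others. These 5 calls were kept with any 1 library left out.

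STK32A, a serine/threonine kinase, had the lowest log2 fold change under that rule, -2.44 ± 0.38, with 1.08 and 2.21 CPM in ABTr3, against 2.59 to 17.8 CPM in the others. PRSS8, the channel-activating protease prostasin, had 0.800 and 0.666 CPM in ABTr3, against 17.6 and 9.13 in ABTr1 and 1.21 to 3.61 in ABTr2 and ABTr4, so that most of its distance was from ABTr1. Both calls ended without ABTr3 replicate 2, with adjusted p of up to 0.154 and 0.213. PTGS1 (cyclooxygenase 1), SLC1A3 (a glutamate transporter), TSPAN18 and TMEM63C followed, with log2 fold changes of -1.82, -1.77, -1.70 and -1.54. Each of these calls ended without 1 or both of the ABTr3 libraries, with adjusted p of up to 0.195 for PTGS1, 0.147 for SLC1A3, 0.126 for TSPAN18 and 0.0712 for TMEM63C.

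The end of the short arm of chromosome 9 held 25 of the 316 genes that were lower in ABTr3. Of 57 genes tested at chr9:1-20000000 (hg19), 54 had a log2 fold change below 0, 25 passed the test as lower (43.9%, beside 1.93% of all genes tested) and 0 as higher. The median log2 fold change of the 57 genes was -0.89, or 0.540-fold, beside 0.03 over all genes tested. It was -0.94 against ABTr1, -0.69 against ABTr2 and -0.89 against ABTr4, and -0.97 within replicate 1 and -0.81 within replicate 2. The same genes differed little by replicate number, with a median log2 difference of 0.08 between replicate 1 and replicate 2. Both ABTr3 libraries lay below all 6 others for 27 of the 57 genes, where 3.7% of all genes tested did so. The region was picked because its 2 windows had the lowest medians of 293 windows, 269 of which lay within 0.3 of 0, and its values are a description. Over all other settings run the medians of the 2 windows stayed between -1.05 and -0.76.

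SNAPC3, a subunit of the complex that starts transcription of small nuclear RNA genes, lies at chr9:15422782-15461627 and had 19.3 and 21.3 CPM in ABTr3, against 44.7 to 52.0 CPM in the other clones. The 6 other libraries were within a narrow range and both ABTr3 libraries were below them, with a log2 fold change of -1.24 ± 0.16 (adjusted p = 0.000844). RFX3, a transcription factor of ciliated cells at chr9:3218297-3526001, had 5.08 and 7.30 CPM in ABTr3, against 8.08 to 27.2 CPM in the others (log2 fold change -1.53 ± 0.20). NFIB, a transcription factor of the nuclear factor I family at chr9:14081842-14398982, had 52.7 and 55 CPM in ABTr3, against 88.6 to 117 CPM in the others (log2 fold change -0.94 ± 0.15). BNC2, a zinc finger protein at chr9:16409501-16870786, had 37.8 and 42.5 CPM in ABTr3, against 68.2 to 99.8 CPM in the others (log2 fold change -0.96 ± 0.16). KANK1, MPDZ, KIAA1432 and CDC37L1 had log2 fold changes of -1.06, -1.03, -1.12 and -1.05. The calls of SNAPC3 and RFX3 were kept with any library left out, and those of the other 6 ended without 1 or both ABTr3 libraries, with adjusted p of up to 0.114.

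Further genes of the region, chosen after their values were seen, included JAK2, the kinase that carries signals of interferon gamma and of interleukin receptors. JAK2 had 4.78 and 5.91 CPM in ABTr3, against 8.10 to 15.7 CPM in the others (log2 fold change -1.15 ± 0.24, adjusted p = 0.0164), and its call ended without ABTr3 replicate 1 or ABTr4 replicate 2 (adjusted p up to 0.214). SMARCA2, an ATPase of the SWI/SNF chromatin remodelling complex, and PSIP1, a chromatin reader that takes part in end resection, had log2 fold changes of -0.75 ± 0.16 and -0.85 ± 0.18, and their calls ended without ABTr3 replicate 1 or ABTr4 replicate 2, for SMARCA2 also without ABTr3 replicate 2 (adjusted p up to 0.207 and 0.274). RPS6, a protein of the small ribosomal subunit, had 585 and 1088 CPM in ABTr3, against 972 to 1477 CPM in replicate 1 and 1138 to 2638 CPM in replicate 2 of the others (log2 fold change -0.90 ± 0.20), and its call ended without any library of ABTr3 or ABTr4 (adjusted p up to 0.245). CD274, which encodes the immune checkpoint ligand PD-L1, had a log2 fold change of -0.85 ± 0.41 that missed the threshold (adjusted p = 0.328).

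Values of 3 genes beyond this stretch were picked after they were seen and are a description. MLLT3, at chr9:20341663-20622542, was lower with a log2 fold change of -1.54 ± 0.27, at 3.00 and 4.51 CPM in ABTr3, against 5.17 to 17.3 CPM in the others, and the call ended without either ABTr3 library (adjusted p up to 0.102). FOCAD, the next gene at chr9:20658308-20995954, had 7.44 and 5.81 CPM in ABTr3, against 5.29 to 11.2 CPM in the others, with a log2 fold change of -0.36 ± 0.22 (adjusted p = 0.389). TUSC1, at chr9:25676387-25678856, had a log2 fold change of 0.34 ± 0.21 and overlapped the others. The 100 genes tested at chr9:20000001-40000000 had a median of -0.12 with 2 lower, and the 486 genes beyond had a median of 0.03.

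**Figure D2:**
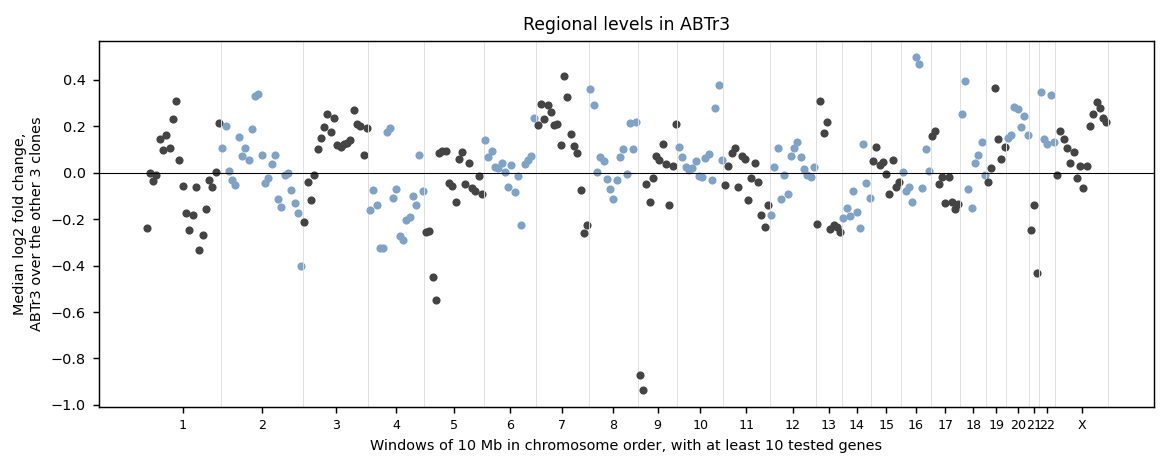
Median log2 fold change of ABTr3 over the other 3 clones in windows of 10 Mb along the genome, with at least 10 tested genes in a window. Each point is a window in chromosome order with chromosomes in alternating colours, and the 2 lowest points, at -0.87 and -0.94, are the first 2 windows of chromosome 9.

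**Figure D3:**
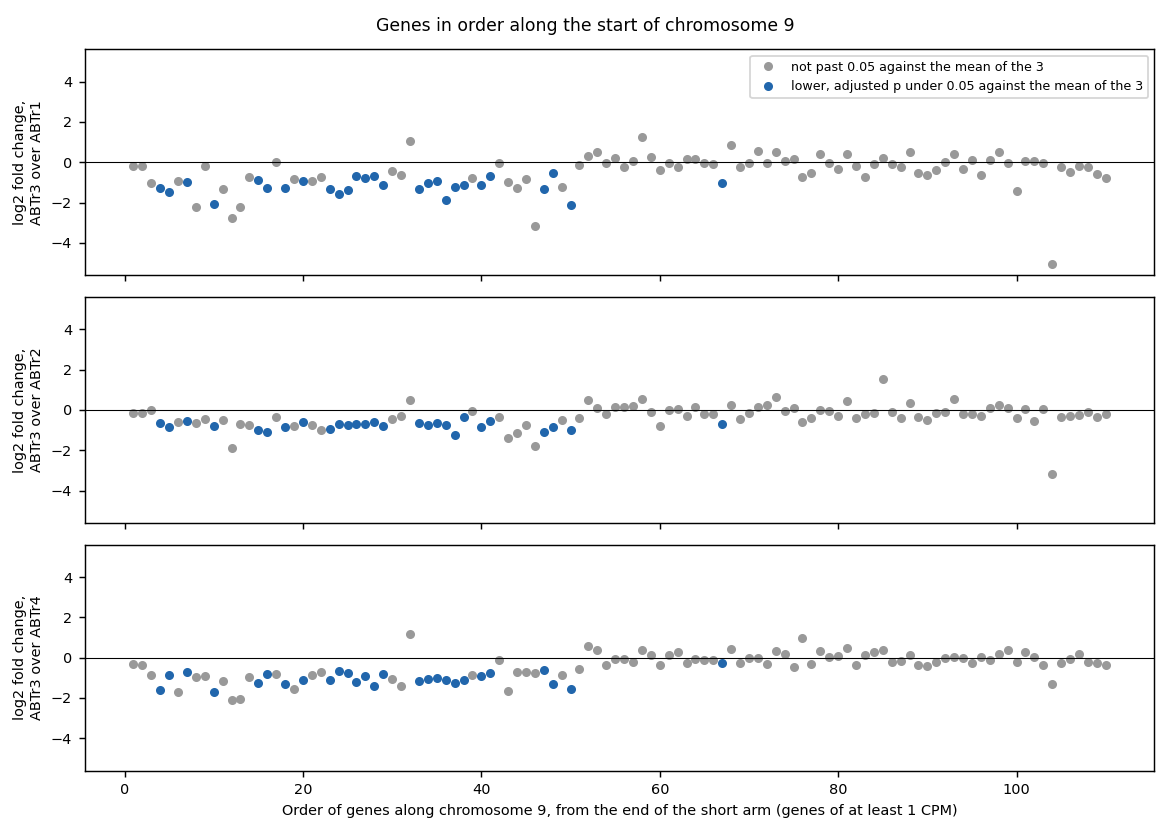
Log2 fold change of ABTr3 over ABTr1 (top), ABTr2 (middle) and ABTr4 (bottom) for genes in their order from the end of the short arm of chromosome 9. Blue points passed the test against the mean of the 3 clones, and genes of the lowest CPM are not drawn. In each panel the genes nearest to the end of the arm lie mostly below 0 and the later ones around 0. Over the first 20000000 bases the medians were -0.94, -0.69 and -0.89, taken over all 57 genes tested, drawn or not.

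Other stretches moved less or not against every clone. At chr5:30000001-50000000 the median of 74 genes was -0.52 with 16 lower (21.6%, beside 1.93%) and 0 higher, and it was -0.70 against ABTr2 and -0.66 against ABTr4 but -0.09 against ABTr1. At chr21:40000001-50000000 the median of 75 genes was -0.43 with 11 lower (14.7%), and it was -0.44 against each of ABTr1, ABTr2 and ABTr4. At chr16:40000001-60000000 the median of 85 genes was 0.49 with 21 higher (24.7%, beside 1.68%) and 2 lower, and it was 0.56, 0.52 and 0.27 against ABTr1, ABTr2 and ABTr4. NETO2, an auxiliary subunit of kainate receptors, had 103 and 63.0 CPM in ABTr3 there, against 39.4 to 63.4 CPM in replicate 1 and 15.2 to 30.7 CPM in replicate 2 of the others (log2 fold change 1.32 ± 0.15, kept with any library left out). ORC6, a subunit of the origin recognition complex, GPT2, an alanine aminotransferase, SHCBP1 and the long noncoding RNA CRNDE had log2 fold changes of 1.11, 0.84, 0.86 and 1.13, and their calls ended without ABTr3 replicate 2 (adjusted p up to 0.463). MMP2, the protease with the large fall, lies in the same stretch at chr16:55513081-55540586.

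Among the named genes of chromosome 5, LOC100506674, FLJ32255 and NNT-AS1 fell by 1.47, 0.86 and 0.75 on the log2 scale. The kit keeps no strand, so reads of NNT-AS1 and of the gene opposite to it cannot be told apart. The 3 calls ended without ABTr3 replicate 1 (adjusted p up to 0.267). At chr7:80000001-90000000 the median of 26 genes was 0.41 with 3 higher (beside 1.68% of all genes tested), and it was -0.04, 0.16 and 0.81 against ABTr1, ABTr2 and ABTr4. This stretch thus lay apart mainly from ABTr4, without which its median was 0.13, and it was 0.21 without ABTr3 replicate 1. SEMA3E, a guidance ligand, DBF4, the activator of the replication kinase CDC7, and PCLO were the 3, with log2 fold changes of 1.07, 0.65 and 0.91. Their calls ended without ABTr3 replicate 1 (adjusted p up to 0.171, 0.524 and 0.635 over the libraries left out), and SEMA3C missed the threshold (log2 fold change 0.53, adjusted p = 0.0512).

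Interferon response genes were the list with most members lower in ABTr3. Type I interferons switch on these genes through the factor ISGF3, which contains STAT2 and IRF9 and binds the interferon-stimulated response element (ISRE) in their promoters. Of 40 members tested, 9 were lower (22.5%, beside 1.93% of all genes) and 0 higher, 34 had a log2 fold change below 0, and the median was -0.45. The count of 9 was 15 by DESeq2 and 9 by limma-voom, and it was 7 without ABTr3 replicate 1, 2 without ABTr3 replicate 2, 5 without ABTr4 replicate 1 and 16 without ABTr2 replicate 1. Of the 40 members, 33 were also lower in replicate 1 than in replicate 2 with a median log2 difference of -0.68, and the part of this in the result was not tested. The promoters of 3 of the 9 genes are shown because they hold the ISRE core letters. They are from RefSeq on GRCh38.p14, plus strand, from 250 bases before to 50 after the gene's start, with the matches to TTTCNNTTTC or its reverse complement GAAANNGAAA in capitals. The windows are chr1:78620198-78620497 for IFI44L, chr11:313790-314089 for IFITM1 and chr4:88456869-88457168 for HERC5.
IFI44L: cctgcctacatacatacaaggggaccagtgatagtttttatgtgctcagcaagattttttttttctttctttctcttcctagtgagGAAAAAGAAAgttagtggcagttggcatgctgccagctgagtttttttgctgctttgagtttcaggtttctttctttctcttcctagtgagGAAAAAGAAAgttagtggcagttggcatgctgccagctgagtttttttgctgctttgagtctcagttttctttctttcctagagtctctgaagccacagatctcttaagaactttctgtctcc
IFITM1: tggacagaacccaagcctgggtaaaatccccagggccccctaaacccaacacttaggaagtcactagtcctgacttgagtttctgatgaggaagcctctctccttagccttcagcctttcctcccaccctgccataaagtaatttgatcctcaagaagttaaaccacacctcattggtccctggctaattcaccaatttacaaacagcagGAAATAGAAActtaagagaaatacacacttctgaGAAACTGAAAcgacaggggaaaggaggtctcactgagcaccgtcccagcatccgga
HERC5: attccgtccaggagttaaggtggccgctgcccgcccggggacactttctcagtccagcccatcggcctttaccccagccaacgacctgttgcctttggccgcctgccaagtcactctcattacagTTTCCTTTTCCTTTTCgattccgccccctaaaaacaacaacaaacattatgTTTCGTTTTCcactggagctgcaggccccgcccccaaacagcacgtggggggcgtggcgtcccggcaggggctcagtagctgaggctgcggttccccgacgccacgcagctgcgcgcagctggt
IFI44L and IFITM1 held 2 matches each and HERC5 held 3, of which 2 overlap. Of the 9 lower genes 7 had a promoter in the table, and 5 of these (71.4%) held a match on either strand, against 15 of 24 members that did not pass (62.5%) and 1255 of 35116 promoters of all genes (3.57%). The first 2 shares count genes, some of which, such as MX1, have several promoters, while the last counts single promoters. A match is a run of letters and not a measured binding site.

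IFI44L, which is induced strongly by interferon, had 0.160 and 0.303 CPM in ABTr3 (8 and 10 reads), against 1.62 to 1.93 CPM in replicate 1 and 3.10 to 3.93 CPM in replicate 2 of the others. ABTr3 was below all 6 others by a wide margin, with a log2 fold change of -3.48 ± 0.44 (adjusted p = 0.000844). IFITM2 and IFITM1 encode membrane proteins that block entry of viruses. IFITM2 had 0.020 and 1.79 CPM in ABTr3, the first from 1 read, against 0.466 to 0.787 CPM in replicate 1 and 8.21 to 11.9 CPM in replicate 2 of the others (log2 fold change -2.89 ± 0.43). IFITM1 had 2.94 and 8.54 CPM in ABTr3, against 5.71 to 7.54 CPM in replicate 1 and 18.9 to 30.9 CPM in replicate 2 of the others (log2 fold change -1.33 ± 0.22). Both were below the other clones within each number while the numbers themselves lay far apart. The IFITM genes are close copies that reads can be shared between.

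IRF9, the DNA-binding part of ISGF3, had 7.32 and 23.6 CPM in ABTr3, against 12.5 to 19.2 CPM in replicate 1 and 43.3 to 51.5 CPM in replicate 2 of the others (log2 fold change -0.98 ± 0.17, adjusted p = 0.00562). STAT2, also chosen later with the receptor genes, had 18.0 and 41.7 CPM in ABTr3, against 22 to 52.4 CPM in the others, and missed the threshold (log2 fold change -0.44 ± 0.18, adjusted p = 0.186). The remaining members that passed, beyond the 4 named by rule, were OAS1 and OAS2, which sense double-stranded RNA, HERC5, which joins ISG15 to proteins, MX1, which blocks viruses, and IFITM3, with log2 fold changes of -1.27, -1.38, -1.02, -0.79 and -0.74. MX1, at chr21:42792485-42831141, lies in the low stretch of chromosome 21. The receptor genes IFNAR1 and IFNAR2 had log2 fold changes of -0.38 ± 0.15 and -0.32 ± 0.17 that missed the threshold (adjusted p = 0.162 and 0.318). The calls of IFI44L and IFITM2 were kept with any library left out, and those of the other 7 ended without ABTr3 replicate 2, with adjusted p of up to 0.441. Antigen presentation genes had 0 of 19 members past the threshold by edgeR with 3 at an unadjusted p under 0.05, 1 by DESeq2 and 0 by limma-voom, and a median of -0.20.

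Genes of DNA replication lay on the other side. All 24 members tested had a log2 fold change above 0, 5 passed as higher (20.8%, beside 1.68%) and 0 as lower, and the median was 0.64. TYMS, thymidylate synthase, had 110 and 90.1 CPM in ABTr3, against 64.2 to 104 CPM in replicate 1 and 27.9 to 57.5 CPM in replicate 2 of the others (log2 fold change 0.92 ± 0.19, adjusted p = 0.02). CDC45, MCM7, GINS1 (chosen after its values were seen) and GINS3, parts of the helicase that opens DNA ahead of the fork, had log2 fold changes of 1.11, 0.88, 0.63 and 0.85. ABTr3 was above the other clones within each number for all 5, and its libraries overlapped those of the other number. All 24 members were also higher in replicate 1 than in replicate 2 (median log2 difference 0.97), and the part of this in the result was not tested. The 5 calls ended without ABTr3 replicate 2 (adjusted p up to 0.609), the list then had 0 called, and it had 0 without ABTr4 replicate 1, 0 without ABTr4 replicate 2, 3 without ABTr1 replicate 2, 12 without ABTr3 replicate 1, 12 without ABTr2 replicate 2 and 20 without ABTr2 replicate 1. DESeq2 called 11 and limma-voom 4.

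All 22 genes of mitosis also had a log2 fold change above 0, with a median of 0.34. Of these 2 were higher, beside 1.68% of all genes tested. MKI67, the proliferation marker Ki-67, had 622 and 184 CPM in ABTr3, against 267 to 306 CPM in replicate 1 and 63.9 to 137 CPM in replicate 2 of the others (log2 fold change 0.97 ± 0.19). BUB1B, a kinase of the spindle checkpoint, had a log2 fold change of 0.68 ± 0.17. Replicate 1 was the higher number for 20 of the 22 genes. The calls of both ended without ABTr3 replicate 2 (adjusted p up to 0.193 and 0.613).

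**Figure D4:**
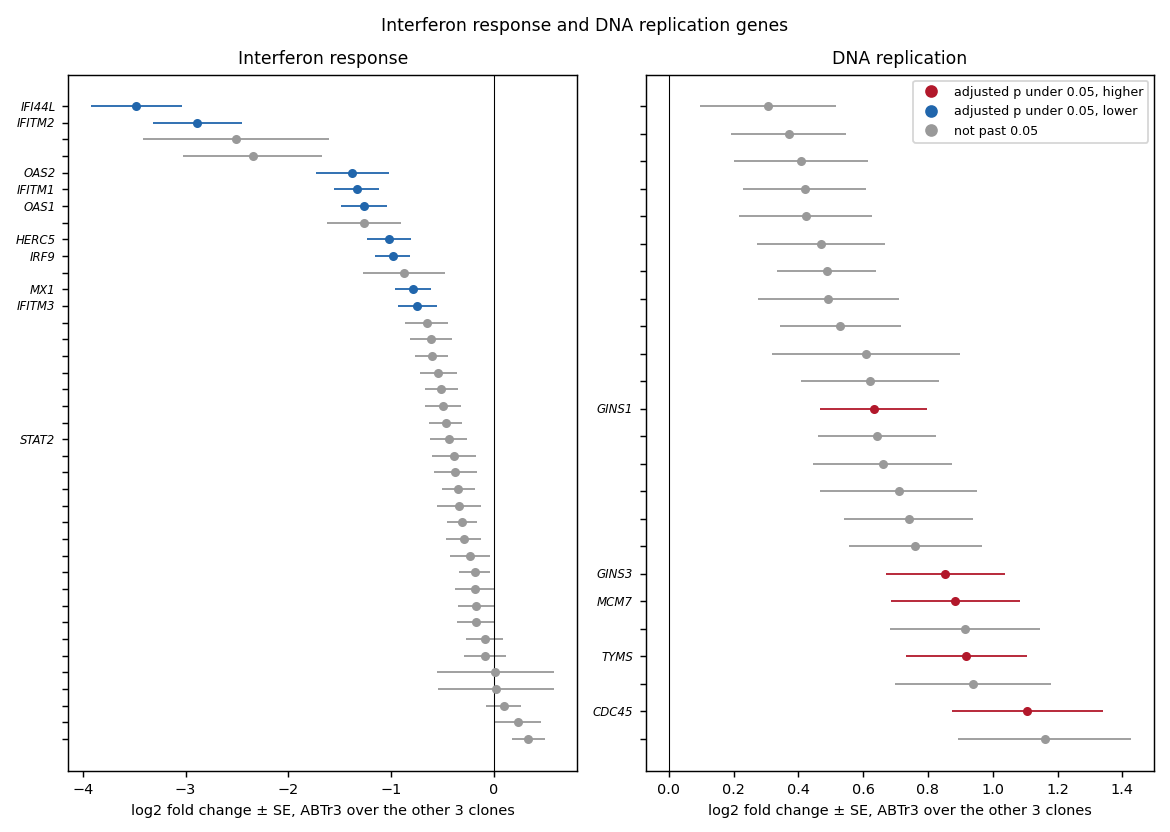
Log2 fold change with SE of ABTr3 over the other 3 clones for 39 of the 40 interferon response genes (left) and the 24 DNA replication genes (right) tested, with names for the genes described in the text. Blue and red mark genes past an adjusted p of 0.05 as lower or higher, with 9 blue points on the left and 5 red points on the right.

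Genes of DNA repair, on which PARP inhibitor sensitivity turns, had mostly positive log2 fold changes in ABTr3, and 2 members of each of 4 lists passed as higher, beside 1.68% of all genes tested. Of 25 genes of homologous recombination 20 had a log2 fold change above 0, 2 were higher (8%) and the median was 0.41. The count was 0 without ABTr1 replicate 1, ABTr3 replicate 2 or either library of ABTr4, 1 without ABTr1 replicate 2 and 11 without ABTr2 replicate 1. Of the 25 genes 21 were also higher in replicate 1 than in replicate 2, with a median log2 difference of 0.63. The part of this in the result was not tested. BRCA2, which acts in homologous recombination and is defective in PEO1, had 80.3 and 29.0 CPM in ABTr3, against 38.0 to 61.4 CPM in replicate 1 and 11.1 to 18.7 CPM in replicate 2 of the others. ABTr3 was the highest clone within each number, the log2 fold change was 0.85 ± 0.20 (adjusted p = 0.0377), and the call ended without ABTr1 replicate 1 or without any library of ABTr3 or ABTr4 (adjusted p up to 0.345). The counts do not show whether the transcripts carry a working reading frame. RAD54L, a motor protein of homologous recombination, had a log2 fold change of 0.73 ± 0.18, and its call ended without any library of ABTr1, ABTr3 or ABTr4 (adjusted p up to 0.539). BRCA1 had 159 and 111 CPM in ABTr3, against 48.7 to 193 CPM in the others, and did not pass (log2 fold change 0.39 ± 0.19, adjusted p = 0.28).

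In end joining and end protection 2 of 16 genes were higher with a median of 0.12. POLQ, the polymerase of theta-mediated end joining, had 132 and 47.3 CPM in ABTr3, against 75.8 to 82.7 CPM in replicate 1 and 16.2 to 32.5 CPM in replicate 2 of the others (log2 fold change 0.86 ± 0.18), and PRKDC, the kinase DNA-PKcs, had a log2 fold change of 0.69 ± 0.16. In fork protection and checkpoint 2 of 18 genes were higher, ATR, the kinase that answers stalled forks, with 0.69 ± 0.15, and CDC25A, a phosphatase of S phase entry, with 0.85 ± 0.19. In the Fanconi anemia pathway 2 of 14 genes were higher, FANCB with 0.97 ± 0.19 and FANCA with 0.75 ± 0.18. Replicate 1 was higher than replicate 2 by 1.05 to 2.13 on the log2 scale for these 6 genes. All 6 calls ended without ABTr3 replicate 2, with adjusted p of up to 0.284 for FANCB, 0.294 for POLQ, 0.251 for PRKDC, 0.322 for ATR, 0.417 for CDC25A and 0.396 for FANCA.

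PARP enzymes and most other genes named in PARP inhibitor resistance did not pass. Of 16 genes of PARP enzymes and single-strand break repair 0 passed by edgeR, with 3 at an unadjusted p under 0.05, 1 by DESeq2 and 0 by limma-voom. PARP1, the main target of veliparib, had 218 and 163 CPM in ABTr3, against 105 to 280 CPM in the others (log2 fold change 0.18 ± 0.18), and PARP2 and PARG, the enzyme that removes poly(ADP-ribose), had log2 fold changes of 0.20 ± 0.16 and 0.02 ± 0.16. TP53BP1 and MAD2L2, which shield broken ends from resection, had log2 fold changes of -0.11 ± 0.15 and 0.01 ± 0.15. SLFN11, which blocks stalled forks, had 155 and 116 CPM in ABTr3, against 93.9 to 167 CPM in the others (log2 fold change 0.20 ± 0.14). ABCB1, the efflux pump P-glycoprotein, had 1.04 and 0.485 CPM in ABTr3, against 1.01 to 1.77 CPM in ABTr1 and ABTr2, and it had no read in ABTr4. Its fitted value against the mean of the 3 rests on ABTr4 and is given with the other settings. ABCG2, a second pump, had 2.74 and 2.79 CPM in ABTr3, against 2.33 to 11.3 CPM in the others. Of 11 genes of drug efflux 1 was lower (beside 1.93% of all genes tested), the major vault protein MVP (log2 fold change -0.70 ± 0.16), whose call ended without either ABTr3 library (adjusted p up to 0.225). Of 20 genes of translation termination and nonsense-mediated decay 0 passed by edgeR, with 3 at an unadjusted p under 0.05, and 0 by DESeq2 and limma-voom, with ETF1 and GSPT1, the release factors, at 0.12 ± 0.15 and 0.15 ± 0.17.

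Of 18 targets of p53, 2 were higher (beside 1.68% of all genes tested) and the median was -0.01. CDKN1A, the cell cycle inhibitor p21, had 34.4 and 17.0 CPM in ABTr3, against 15.9 to 19 CPM in replicate 1 and 3.5 to 6.53 CPM in replicate 2 of the others (log2 fold change 1.38 ± 0.21, adjusted p = 0.0037). GADD45A, a stress protein that responds to DNA damage, had 298 and 106 CPM in ABTr3, against 93.1 to 228 CPM in replicate 1 and 30.5 to 55.7 CPM in replicate 2 of the others (log2 fold change 1.25 ± 0.25). ABTr3 was the highest clone within each number for both. Their calls ended without ABTr3 replicate 2 (adjusted p up to 0.146 and 0.339). Of 23 regulators of apoptosis, 2 were higher: HRK, an activator of cell death, with 8.82 and 10.3 CPM in ABTr3, against 7.05 and 15.1 in ABTr2 and 1.26 to 2.92 in ABTr1 and ABTr4, and BCL2L1, which encodes the protective BCL-XL, with 261 and 293 CPM in ABTr3, against 154 to 212 CPM in the others. Their log2 fold changes were 1.46 ± 0.23 and 0.64 ± 0.15, HRK stood at -0.11 against ABTr2 alone, and both calls ended without ABTr3 replicate 1 (adjusted p up to 0.0925 and 0.444).

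The retinoid list held 4 genes that were lower in ABTr3. Retinoic acid acts through nuclear receptors such as RARB, whose own gene is among its targets, and CRABP2 carries it to them. Of 19 genes of aldehyde dehydrogenases and retinoids 4 were lower (21.1%, beside 1.93% of all genes tested) and 0 higher, 17 had a log2 fold change below 0, and the median was -0.47. RARB had 2.86 and 11.6 CPM in ABTr3, against 6.05 to 19.5 CPM in replicate 1 and 22.8 to 52.4 CPM in replicate 2 of the others (log2 fold change -1.64 ± 0.22, adjusted p = 0.00131), and the call was kept with any library left out. DHRS3, which turns retinal back into retinol, had 14.2 and 76.3 CPM in ABTr3, against 20.2 to 80.3 CPM in replicate 1 and 163 to 251 CPM in replicate 2 of the others (log2 fold change -1.44 ± 0.25). CRABP2 had 3.98 and 4.06 CPM in ABTr3, against 5.93 to 14.1 CPM in the others, with no overlap (log2 fold change -1.26 ± 0.27), and RARRES3, a gene that retinoids induce, had -1.45 ± 0.31. Of the 19 genes 15 were also lower in replicate 1, with a median log2 difference of -0.62, and the part of this in the result was not tested. The calls of DHRS3, CRABP2 and RARRES3 ended without ABTr3 replicate 2, where the list had 1 called member. It had 2 without ABTr4 replicate 2, 7 without ABTr2 replicate 2 and 8 without ABTr2 replicate 1. The highest adjusted p of the 3 were 0.185, 0.192 and 0.335.

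By edgeR 6 epithelial and ovarian lineage genes were higher in ABTr3 and 0 lower, while DESeq2 also called 2 epithelial and 1 lineage gene lower, and edgeR without ABTr2 replicate 1 called 4 and 3 lower. Of 22 epithelial genes 3 were higher (13.6%, beside 1.68% of all genes tested), 13 had a log2 fold change below 0, and the median was -0.14. DSP, desmoplakin of the desmosome, had 371 and 183 CPM in ABTr3, against 123 to 288 CPM in replicate 1 and 74.0 to 147 CPM in replicate 2 of the others (log2 fold change 0.89 ± 0.14, adjusted p = 0.0031). CD24, a surface glycoprotein of epithelial and carcinoma cells, had 513 and 474 CPM in ABTr3, against 152 to 447 CPM in the others, with no overlap (log2 fold change 1.03 ± 0.17). CLDN4, a tight junction claudin, had a log2 fold change of 0.61 ± 0.16. Of 12 genes of the serous ovarian lineage 3 were higher (25%) with a median of -0.01. PAX8, the transcription factor used to diagnose these tumours, had 174 and 205 CPM in ABTr3, against 99.5 to 173 CPM in the others (log2 fold change 0.61 ± 0.16). CLDN16 had 14.7 and 18.4 CPM in ABTr3, against 5.30 and 15.0 in ABTr2 and 3.00 to 4.99 in ABTr1 and ABTr4 (log2 fold change 1.67 ± 0.29), and MECOM, a zinc finger transcription factor, had 0.74 ± 0.19. None of these 6 calls was kept with every library left out in turn: DSP ended without ABTr3 replicate 1 (adjusted p up to 0.0595), CD24 without ABTr3 replicate 2 (0.184), and CLDN4, PAX8, CLDN16 and MECOM without ABTr3 replicate 2 among others (0.424, 0.484, 0.203 and 0.628).

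FN1 was the most abundant mesenchymal gene and was higher in both ABTr3 libraries than in any other, without passing the test. FN1, which encodes the matrix protein fibronectin, had 18854 and 13212 CPM in ABTr3, against 3938 and 7890 in ABTr1, 9462 and 10193 in ABTr2, and 391 and 2223 in ABTr4. The others spread widely, and the adjusted p was 0.221 (log2 fold change 2.13 ± 0.65). It was not among the genes to be named by rule and was chosen after its values were seen. Of 21 mesenchymal genes edgeR called 0 higher and 1 lower (beside 1.68% and 1.93% of all genes tested), against 3 and 4 by DESeq2, 0 and 2 by limma-voom and 2 and 5 by edgeR without ABTr2 replicate 1. The 1 was VIM, an intermediate filament, with 39.5 and 92.0 CPM in ABTr3, against 378 and 403 in ABTr1, 96.2 and 101 in ABTr2, and 40.5 and 62.6 in ABTr4. Its log2 fold change of -1.01 ± 0.22 rests on ABTr1, since it was -2.66 against ABTr1, -0.68 against ABTr2 and 0.30 against ABTr4, and the call ended without ABTr3 replicate 1 or either library of ABTr4 (adjusted p up to 0.271).

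By edgeR, 7 genes of 3 matrix lists were lower and 1 higher, where 1.93% of all genes tested were lower and 1.68% higher. Of 26 matrix proteases and inhibitors 3 were lower and 1 higher, with a median of -0.26, against 5 lower and 5 higher without ABTr2 replicate 1 and 6 and 6 without the clone ABTr2. Beside MMP2 and ADAMTS9, PLAT, the tissue plasminogen activator, had 15.8 and 46.5 CPM in ABTr3, against 35.1 to 47.7 CPM in replicate 1 and 68.9 to 101 CPM in replicate 2 of the others (log2 fold change -1.08 ± 0.17, adjusted p = 0.0031), and MMP7, matrilysin, had -2.31 ± 0.55 from few reads (5 and 31 in ABTr3). Of 31 collagens and basement membrane genes 3 were lower (8 without ABTr2 replicate 1), COL6A1, LAMA4 and COL18A1 with log2 fold changes of -1.09, -0.88 and -0.70. All 3 overlapped ABTr4, and their calls ended without ABTr3 replicate 2 (adjusted p up to 0.507). COL6A1 and COL18A1 lie in the low stretch of chromosome 21. Of 19 integrins 1 was lower, ITGA4, with -0.98 ± 0.19. The calls of PLAT and MMP7 ended without ABTr3 replicate 1 and that of ITGA4 without ABTr3 replicate 2 (adjusted p up to 0.0776, 0.359 and 0.255).

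In TGF-beta and BMP signaling, where ligands bind receptor kinases that phosphorylate SMAD proteins, 2 of 29 genes were higher and 4 lower, with a median of -0.31. Of all genes tested 1.68% were higher and 1.93% lower. The lower count of the list was 0 without ABTr3 replicate 2, 9 without ABTr2 replicate 2 and 10 without ABTr2 replicate 1. Among ligands, INHBB, the beta B subunit of activin and inhibin, had 107 and 22 reads in ABTr3, against 20 and 6 in ABTr1, 10 and 0 in ABTr2, and 2 and 0 in ABTr4. At 2.14 and 0.666 CPM in ABTr3 it was low everywhere, and its fitted log2 fold change of 3.83 ± 0.56 (adjusted p = 0.00208) depends on near-empty libraries. Among receptors, TGFBR3, the co-receptor betaglycan, was higher with 44.9 and 39.0 CPM in ABTr3, against 18.0 to 34.2 CPM in the others (0.83 ± 0.18), and BMPR2 was lower with -0.57 ± 0.15. Among targets and regulators, TGFBI, an adhesion protein that TGF-beta induces, had 83.9 and 84.0 CPM in ABTr3, against 133 to 381 CPM in the others, with no overlap (log2 fold change -1.42 ± 0.21, adjusted p = 0.0031). LTBP2, a matrix protein related to the binders of latent TGF-beta, had -1.15 ± 0.20, and SMAD6, an inhibitory SMAD, had -2.13 ± 0.49. SMAD6 and BMPR2 were chosen after their values were seen. The calls ended without ABTr3 replicate 1 for INHBB (adjusted p up to 0.0633), without ABTr3 replicate 2 for TGFBI (0.0586), and without either for TGFBR3, LTBP2, SMAD6 and BMPR2 (0.277, 0.110, 0.252 and 0.425).

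Receptors of other pathways gave a few falls, where 1.93% of all genes tested were lower. Of 25 Wnt genes 2 were lower, the receptors FZD7 and FZD2 with log2 fold changes of -1.10 and -0.68. Of 27 receptor tyrosine kinases 2 were lower: DDR1, a collagen receptor, had 30.5 and 44.6 CPM in ABTr3, against 35.8 to 100 CPM in replicate 1 and 92.5 to 186 CPM in replicate 2 of the others (log2 fold change -1.09 ± 0.19), and ERBB2 had -0.61 ± 0.15. Of 13 Notch genes 1 was lower, NOTCH3, with 2.78 and 4.91 CPM in ABTr3, against 24.2 and 33.0 in ABTr1, 2.93 and 12.8 in ABTr2, and 2.29 and 4.98 in ABTr4, so that ABTr3 and ABTr4 lay together. Of 25 HOX genes 3 were lower and 21 had a log2 fold change below 0, with a median of -0.28. HOXB4, HOXB8 and HOXC13 had -0.98, -0.97 and -1.15, and 22 of the 25 were also lower in replicate 1. All 8 calls ended without ABTr3 replicate 2, with adjusted p of 0.175 for DDR1 and up to 0.405 for the others.

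**Figure D5:**
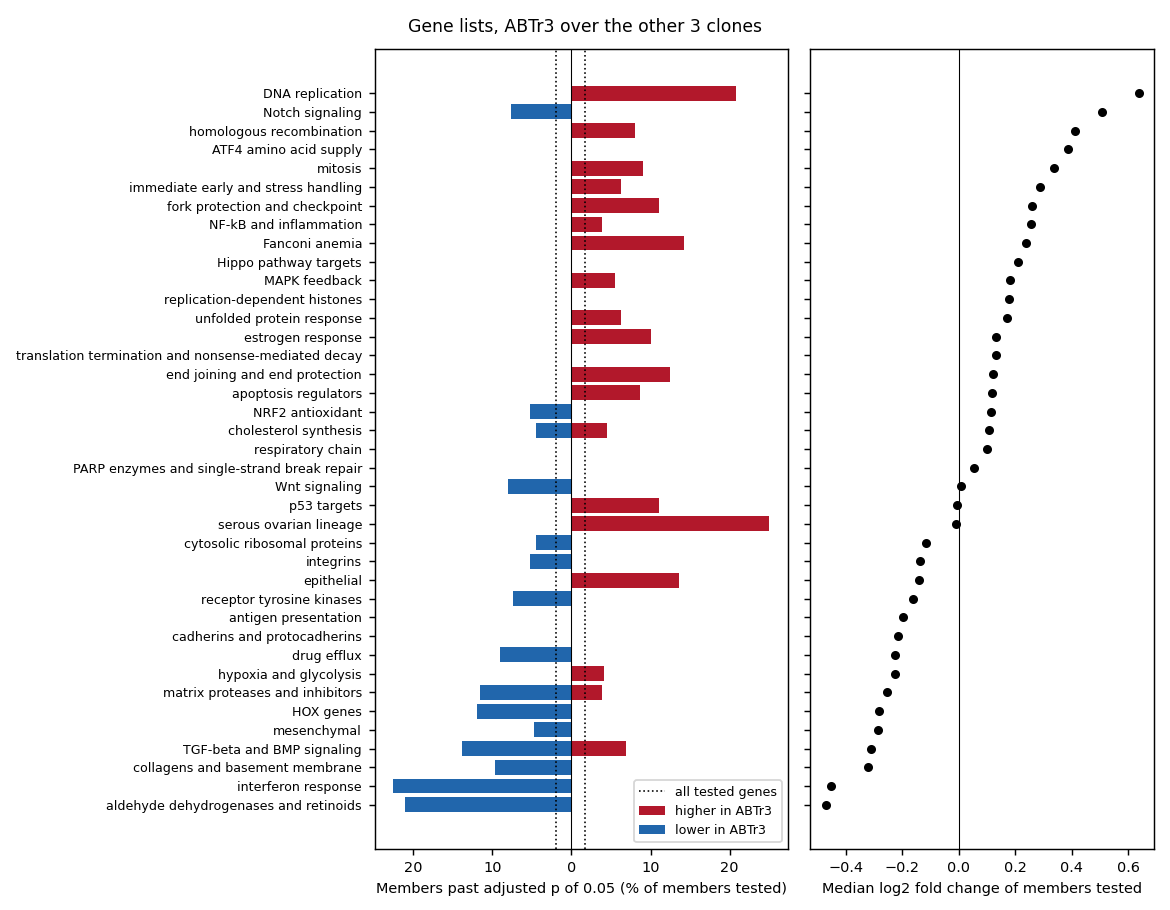
Share of tested members past an adjusted p of 0.05 (left, higher in red to the right and lower in blue to the left, with dotted lines at the shares of all genes tested, 1.68% and 1.93%) and median log2 fold change (right) of gene lists with at least 5 tested members. Marker lists of cell types are not drawn. Of the lists drawn, interferon and retinoid genes have the lowest medians, -0.45 and -0.47, and DNA replication the highest, 0.64.

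The other lists moved in few members, where 1.68% of all genes tested were higher and 1.93% lower. Of 26 genes of NF-kB and inflammation 1 was higher (10 without replicate 1 and 9 without replicate 2 of ABTr2), the chemokine CXCL2, with 158 and 43.3 CPM in ABTr3, against 30.5 to 89.6 CPM in replicate 1 and 15.8 to 20.4 CPM in replicate 2 of the others (log2 fold change 1.48 ± 0.26). Single members were higher in estrogen response (STC2, a secreted glycoprotein, 0.98), MAPK feedback (the phosphatase DUSP4, 1.02), the unfolded protein response (HERPUD1, 0.89), hypoxia and glycolysis (hexokinase HK2, 0.63), and immediate early and stress genes (the chaperone HSPH1, 0.60). In the hypoxia and glycolysis list 19 of 24 members had a log2 fold change below 0, with a median of -0.23. By edgeR 0 of them were lower, against 2 by DESeq2, 0 by limma-voom and 5 by edgeR without ABTr2 replicate 1. AKR1C3, an aldo-keto reductase of the NRF2 list, was lower with 0.540 and 4.69 CPM in ABTr3, against 2.18 to 4.76 CPM in replicate 1 and 14.8 to 26.3 CPM in replicate 2 of the others (log2 fold change -2.18 ± 0.35). Of 22 genes of cholesterol synthesis 1 was higher and 1 lower, TM7SF2 (-0.86), with 14 above 0 and a median of 0.11. Of 44 cytosolic ribosomal proteins 2 were lower, RPS6 of the chromosome 9 stretch and RPL37 of the chromosome 5 stretch (-0.68), with a median of -0.11. These calls ended without ABTr3 replicate 2 in each case, with adjusted p of up to 0.464.

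By edgeR 0 members passed among 23 genes of ATF4 and amino acid supply, 17 Hippo targets, 19 cadherins and protocadherins, 28 genes of the respiratory chain and 12 replication-dependent histones, with medians of 0.39, 0.21, -0.22, 0.10 and 0.18. At an unadjusted p under 0.05 they had 11, 5, 4, 2 and 1 members. DESeq2 called 5 genes of ATF4 and amino acid supply and 2 cadherins, limma-voom called 2 cadherins, and neither called a member of the other lists. Of 25 cancer-testis genes only 3 were expressed enough to be tested, and 0 passed by any of the 3 tools.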

How the data were processed

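RNA of 8 clone libraries was analysed as deposited counts per gene. The alignment was to hg19 by TopHat2 2.0.14 and the counting by featureCounts 1.4.6 (Subread), per the submitters' processing notes. How strand and multiply matching reads were handled is not given in the sources used here, and the kit keeps no strand. The clone numbers in the descriptions differ from the titles, and the titles are used. The design text names 15 samples in 3 independent experiments; 10 libraries are used here. The table held 25370 genes, of which 28 symbols had turned into dates.

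Genes passed the expression filter of edgeR 4.0.16 over the clone libraries, with 16343 remaining. Quasi-likelihood tests with TMM factors used a mean per clone, the replicate number as a block and 3 residual degrees of freedom. The block was part of the planned design and was not chosen from the data. The deviations of same-numbered libraries correlated in all 6 pairs of clones, at 0.456 or more. The contrast was ABTr3 minus the mean of the 3 other clones, with Benjamini-Hochberg adjustment over all genes tested and a threshold of 0.05. CPM are scaled by TMM. Counting error is small at these depths for all but the lowest genes. Alternatives were no block, DESeq2 1.42.0, limma-voom (limma 3.58.1), other size factors, no filter, all 10 libraries, each library or clone left out, and the clone as the unit; DESeq2 and limma-voom with no block were added after seeing the data.

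The members, the 46 gene lists and the rules for naming genes were chosen with earlier results of these data known. Named were 12 rises and 12 falls, those of greatest log2 fold change at a mean of 5 CPM or more in the higher group and without overlap, up to 4 called members of each list, a set of resistance genes in any case, and up to 4 genes of the 3 highest and 3 lowest windows of 10 Mb; other genes are said to be chosen after their values were seen. Some genes that these rules cover are not reported here. Of 949 list entries 948 were matched, 4 by an older symbol, and 859 were tested. R 4.3.3, Python 3.11.15, pandas 2.3.3 and matplotlib 3.10.9 were used.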

Additional observations from a re-analysis of the deposited data

How the results depend on the processing

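The count of 590 genes was within 1.5 times its value with DESeq2's size factors, no filter, limma-voom, without the clone ABTr1 and without the clone ABTr4, which gave 601, 884, 670, 577 and 539. DESeq2 called 1112 genes (436 higher, 676 lower). The fit with all 10 libraries called 40 (16 and 24), and without the clone ABTr2 the count was 1604 (789 and 815). With 1 library left out the count ran from 110 to 1530, the higher genes from 54 to 740 and the lower ones from 56 to 790. The share of higher among called genes was 46.4%, against 56.5% without ABTr3 replicate 1 and 30.8% by DESeq2 with no block.

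The numbers pair libraries only by how they deviate together. Without the replicate block edgeR called 0 genes, 0 higher and 0 lower, with 785 at an unadjusted p under 0.05, limma-voom called 0 (0 and 0) with 778, and DESeq2 called 107 (33 and 74). Taking each clone as 1 sample, edgeR called 0 (0 and 0), with 655 at an unadjusted p under 0.05. Of the 130 named genes past the threshold 0 passed without the block, 23 in the fit with all 10 libraries, 55 without ABTr3 replicate 1, 37 without ABTr3 replicate 2, 130 by DESeq2 and 124 by limma-voom. All 590 genes kept their sign in these settings, apart from 1 that was not fitted without the clone ABTr2. They were picked in the reported fit of the same clone libraries, so the kept signs are a description.

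Genes that changed sign in some setting were ones that had missed the threshold. Leaving out single libraries gave log2 fold changes of -0.11 to 0.83 for BRCA1, -0.049 to 0.38 for PARP1, -0.024 to 0.41 for PARP2, -0.23 to 0.25 for PARG, -0.18 to 0.19 for MAD2L2, -0.036 to 0.27 for ETF1, -0.14 to 0.41 for GSPT1 and -1.76 to 0.45 for CDH1. The first value of each range except that of CDH1 is without ABTr3 replicate 2 and the second without ABTr3 replicate 1. PARG was at -0.0073 without the clone ABTr1, -0.014 without the clone ABTr2, -0.054 with the clone as the unit and -0.0085 by DESeq2 with no block. MAD2L2 was at -0.12 without the clone ABTr1 and -0.031 with the clone as the unit. ABCB1, with a fitted 2.07 ± 0.64 (adjusted p = 0.0916 by edgeR), was at -0.82 without the clone ABTr4, which had no read of it, and -0.18 with the clone as the unit. ETF1 was at -0.089 without the clone ABTr1 and GSPT1 at -0.00016 with the clone as the unit. CDH1, at -0.42 in the fit reported, was at 0.45 without ABTr1 replicate 1, -1.76 without ABTr3 replicate 1 and 1.09 without the clone ABTr1, and EPCAM was at 0.084 without the clone ABTr1. The cause of these changes was not tested. Depth limits IFI44L, IFITM2, MMP7, INHBB and ABCB1, which rest on few reads.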

Other observations

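Of 4 genes of the first steps of complement, 3 passed the test as lower in ABTr3, beside 1.93% of all genes tested. The 4 were chosen after their values were seen, so this count is a description. SERPING1, the inhibitor of the proteases C1r and C1s, had 1.90 and 8.66 CPM in ABTr3, against 6.45 to 17.6 CPM in replicate 1 and 33.7 to 51.2 CPM in replicate 2 of the other clones. ABTr3 was below the other clones within each number (log2 fold change -2.23 ± 0.23, edgeR adjusted p = 9.7e-05). C1R had 5.84 and 30.7 CPM in ABTr3, against 9.83 to 17.7 CPM in replicate 1 and 51.7 to 111 CPM in replicate 2 of the others (log2 fold change -1.31 ± 0.16, adjusted p = 0.000794). Both calls were kept with any 1 library left out. C1RL had a log2 fold change of -0.76 ± 0.17 and overlapped ABTr4 in replicate 1, and its call ended without either ABTr3 library or ABTr4 replicate 2 (adjusted p up to 0.331). C1S had 3.52 and 38.1 CPM in ABTr3, against 1.51 and 43.0 CPM in ABTr4 and 7.16 to 122 CPM in ABTr1 and ABTr2, and did not pass (adjusted p = 0.121). All 4 genes were lower in replicate 1 than in replicate 2, by 1.14 to 3.81 on the log2 scale.

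Receptors of cytokines were also chosen after their values were seen and are a description, since receptors that did not pass were not counted. They included LIFR, the receptor of leukemia inhibitory factor on chromosome 5. LIFR had 16 and 13.5 CPM in ABTr3, against 33.5 to 48.5 CPM in the others, with no overlap, no dependence of the call on any 1 library and a log2 fold change of -1.45 ± 0.18 (edgeR adjusted p = 0.000794). OSMR, the neighbouring receptor of oncostatin M, had 61.3 and 65.8 CPM in ABTr3, against 67.6 to 153 CPM in the others (log2 fold change -0.76 ± 0.17). IFNGR2 and IL10RB lie close together, at chr21:34775202-34809828 and chr21:34638665-34669539. IFNGR2, IL10RB and TNFRSF1A, receptors of interferon gamma, interleukin 10 and tumor necrosis factor, had log2 fold changes of -0.62 ± 0.16, -0.71 ± 0.19 and -0.64 ± 0.15. The calls of these 4 ended without either ABTr3 library among others, with adjusted p of up to 0.225, 0.314, 0.277 and 0.194.

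Of the rises, THBD, XDH and PSG2 were also chosen after their values were seen. THBD, the anticoagulant receptor thrombomodulin, had 58.4 and 50.4 CPM in ABTr3, against 8.85 to 33.1 CPM in the others (log2 fold change 1.79 ± 0.20). XDH, xanthine dehydrogenase, had 37.4 and 27.8 CPM in ABTr3, against 5.66 to 24.9 CPM in the others (log2 fold change 1.74 ± 0.21). Neither overlapped the other clones, and both calls were kept with any 1 library left out. PSG2, a relative of PSG1 that can share its reads, had 1.72 and 3.18 CPM in ABTr3, against 0.063 to 0.742 CPM in the others (log2 fold change 2.71 ± 0.47), and its call ended without ABTr3 replicate 2 (adjusted p up to 0.221).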
